A study of Mus musculus with 6 samples.

Results

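The Dlg scaffolds and their partners of the basolateral polarity complex were followed in mouse thyroid after deletion of Foxe1. The set has 8 genes, Dlg1, Dlg2, Dlg3, Dlg4, Dlg5, Scrib, Llgl1 and Llgl2, of 19505 genes named on the array. They were chosen by family and complex name, with earlier results of the same arrays known, and each was read through its brightest probe set. Each of the 8 has 1 probe set, so brightness decided nothing. Because the comparison of the genotypes was in view when the set was proposed, the differences below describe these arrays and are not independent evidence of a response.

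Epithelial cells keep an apical and a basolateral surface apart with complexes that oppose each other. Scribble, the Dlg proteins and the Lgl proteins act together at the lateral membrane, while the Par and Crumbs complexes hold the apical side, where atypical protein kinase C phosphorylates Lgl and releases it from the membrane. Dlg proteins are membrane-associated guanylate kinase scaffolds that gather receptors, channels and adhesion proteins through PDZ domains, and several of them are best known from synapses. A thyroid follicular cell depends on this polarity, since iodide enters through its basolateral surface and hormone is made at its apical surface, against the colloid.

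The animals were 3 Foxe1flox/flox/Cre mice, called knockouts here, and 3 Cre control mice, whose labels name Cre without a floxed Foxe1 allele. Both groups had a C57BL/6J background, carried Cre and received tamoxifen at 0.05 g/kg once daily for 5 days from an age of 6 to 8 weeks. Thyroid was taken 2 weeks later, and RNA of 1 lobe per animal was hybridised to 1 array. The sources used here do not give the promoter that drives Cre, the cells in which it acts or the sex of the animals.

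Values are log2 RMA values of 22206 probe sets, so a difference of 1 is a doubling, and array medians lay between 5.62 and 5.69. The targeted gene checked the labels: Foxe1 gave 7.60, 7.19 and 7.04 on control arrays and 3.33, 2.88 and 3.04 on knockout arrays. Thyroglobulin, Tg, read between 18.67 and 19.27 on all arrays, near the top of the scale, so thyroid tissue was present. Genes of other tissues read as high. Acta1 of skeletal muscle gave 19.64 to 19.89, above Tg on every array, and Bpifa1 of airway 18.07 to 19.89. Pth, the parathyroid hormone gene, was abundant on some arrays (17.02 to 19.68 in controls, 3.56, 18.61 and 10.06 in knockouts). Genes of the Y chromosome gave a mean of 8.03 to 8.30 on 4 arrays but 3.04 in control 1 and 2.65 in knockout 3. With 3 arrays per group, precision is limited throughout, and in whole lobes fewer cells of a type and less RNA per cell cannot be told apart.

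All 8 polarity genes had a higher mean in the knockouts, as deposited and after renewed quantile normalization or median centring, and none passed the test over all probe sets. The mean differences ran from 0.05 for Llgl1 to 1.32 for Dlg2 on the log2 scale, with a median of 0.67, where the median over all probe sets was -0.02 and 46.8% of probe sets were higher. In 5 of the 8, Dlg1, Dlg4, Dlg5, Scrib and Llgl2, every knockout lay above every control, an arrangement that 9.28% of all probe sets showed. At a limma p adjusted over all probe sets of 0.05, 0 of the 8 were called, against 0.338% of all probe sets. At an unadjusted p of 0.05 it was 6 of 8, all but Dlg3 and Llgl1, against 12.7% of all probe sets. Without control 1 and knockout 3, the arrays that lacked Y-linked signal, 6 of 8 means were higher and 3 reached an unadjusted p of 0.05. The shares of all probe sets in that smaller fit are not given, so these counts have no background beside them.

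**Figure D1:**
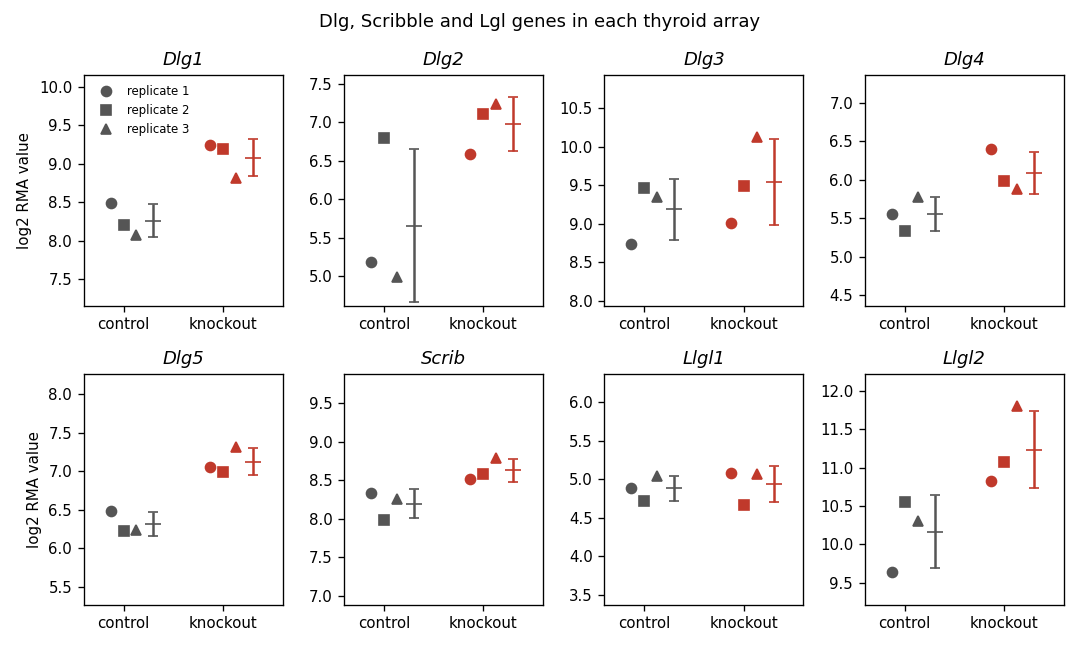
Log2 RMA value (vertical axis, each panel spanning the same 3 log2 units) of the 8 genes in 3 control arrays (grey) and 3 knockout arrays (red), with the mean and SD of each group beside the points. Symbols give the replicate number, which only names the animal. Dlg1, Dlg4, Dlg5, Scrib and Llgl2 have all knockouts above all controls, and Llgl1 overlaps fully.

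Dlg1 is the Dlg scaffold most widely found in epithelia, at lateral cell contacts. Control arrays gave 8.49, 8.21 and 8.07 and knockout arrays 9.24, 9.19 and 8.81. The groups did not overlap, and the lowest knockout stood 0.32 above the highest control. The means were 8.26 ± 0.21 and 9.08 ± 0.24 (SD, n = 3 each), a difference of 0.82 (SE 0.21, 1.77-fold, limma adjusted p = 0.148). Knockout 3, the highest array for several other members, was the lowest knockout here.

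Dlg5, a larger and more distant relative that takes part in the delivery of cadherins to cell contacts, had the smallest p of the set. Control arrays gave 6.49, 6.22 and 6.24 and knockout arrays 7.06, 6.99 and 7.32. This was the widest separation among the 8, with 0.50 between the highest control and the lowest knockout, and both groups were tight. The means were 6.32 ± 0.15 and 7.12 ± 0.17 (SD, n = 3 each), a difference of 0.81 (SE 0.19, 1.75-fold, limma adjusted p = 0.124).

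The sequences upstream of Dlg1 and Dlg5 are shown because these genes had the smallest p of the set and Foxe1 is a forkhead factor, a class that binds DNA around the core AAACA. RefSeq's promoter table for GRCm38.p6 matched 6 of the 8 genes with 14 start sites, and Scrib and Llgl2 were not matched. The 250 bases before each start were searched on both strands for TAAACA (reverse complement TGTTTA) and for the shorter core AAACA (reverse complement TGTTT), which lies within it. TAAACA was in 0 of the 14 windows, against 12.0% of the 32851 windows of all genes. AAACA was in 8 of the 14 windows, against 46.4% of all windows. Each of the 6 genes had it at 1 or more starts, but no share of all genes is given beside that count. Genes with several starts have more windows in which it can occur. Windows of 1 gene are not independent, and a match of letters is no binding site. Dlg1, the window before the annotated gene start, lies at chr16:31663193-31663442 on the plus strand, and Dlg5 at chr14:24245921-24246170 on the minus strand, each 5′ to 3′ on the gene's strand with the core in capitals.
Dlg1: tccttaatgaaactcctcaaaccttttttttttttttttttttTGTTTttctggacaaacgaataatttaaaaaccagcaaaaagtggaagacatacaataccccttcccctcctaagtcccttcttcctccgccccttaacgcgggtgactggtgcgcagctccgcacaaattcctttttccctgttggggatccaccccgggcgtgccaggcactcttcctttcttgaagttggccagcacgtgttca
Dlg5: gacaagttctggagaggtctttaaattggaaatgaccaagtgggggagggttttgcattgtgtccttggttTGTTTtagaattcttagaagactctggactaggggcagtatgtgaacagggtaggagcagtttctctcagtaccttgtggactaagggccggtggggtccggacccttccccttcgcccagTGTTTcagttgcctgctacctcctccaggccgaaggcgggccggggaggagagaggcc
The core occurred 1 time in the Dlg1 window and 2 times in the Dlg5 window, each time as TGTTT.

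Dlg2, Dlg3 and Dlg4 are the scaffolds best known from the postsynaptic density, where they hold glutamate receptors. Dlg2 had the largest mean difference of the set and the widest spread. Control arrays gave 5.18, 6.80 and 4.99 and knockout arrays 6.58, 7.11 and 7.24. Control 2 stood inside the knockout range, while the other controls lay well below it. The means were 5.66 ± 0.99 and 6.98 ± 0.35 (SD, n = 3 each), a difference of 1.32 (SE 0.44, 2.50-fold, limma adjusted p = 0.255). When 1 array was left out, the difference ran from 0.99 (without control 3, limma adjusted p = 0.486) to 1.89 (without control 2). The adjusted p of 0.0702 without control 2 was the lowest that any gene of the set reached under any setting.

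Dlg3 is X-linked. Control arrays gave 8.74, 9.47 and 9.35 and knockout arrays 9.01, 9.49 and 10.13. The groups overlapped, with only knockout 3 clearly above the controls, and the difference of 0.36 was smaller than the SD of the knockouts, 0.56 (SE 0.31, limma adjusted p = 0.705). It was 0.063 without knockout 3, 0.13 without control 1, 0.62 without knockout 1 and 0.14 with arrays weighted by their quality.

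Dlg4 is a major scaffold of excitatory synapses. Control arrays gave 5.56, 5.33 and 5.78 and knockout arrays 6.40, 5.99 and 5.88. The knockouts lay above the controls by a narrow 0.10 between the nearest arrays. The means were 5.56 ± 0.23 and 6.09 ± 0.27 (SD, n = 3 each), a difference of 0.53 (SE 0.22, limma adjusted p = 0.347). The mean level of a list of 7 neuronal marker genes overlapped between the groups. It was 4.48 to 4.81 in the controls and 4.57 to 4.79 in the knockouts, and 3 of its 7 genes were higher. Snap25 read 6.17 to 6.86, Stmn2 5.16 to 6.22 and Syt1 3.36 to 4.01 over the 6 arrays. Differences of the 7 genes ran from -0.26 for Snap25, a protein of vesicle fusion, to 0.45 for Rbfox3, a splicing factor of neurons, for which all knockouts lay above all controls.

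Scrib is the scaffold that gives the complex its name, a protein of leucine-rich repeats and PDZ domains at the lateral membrane. Control arrays gave 8.34, 7.98 and 8.26 and knockout arrays 8.51, 8.58 and 8.79. The groups did not overlap, but the gap between them was 0.17, about the size of the spread within either. The means were 8.19 ± 0.19 and 8.63 ± 0.15 (SD, n = 3 each), a difference of 0.43 (SE 0.19, limma adjusted p = 0.39), and its unadjusted 95% interval began at 0.0023.

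The Lgl genes gave the set's second largest difference and its smallest. Llgl2, the Lgl gene characteristic of epithelia, gave 9.64, 10.55 and 10.31 on control arrays and 10.83, 11.07 and 11.80 on knockout arrays. Every knockout was above every control, with control 1 the lowest array and knockout 3 the highest. The means were 10.17 ± 0.47 and 11.23 ± 0.51 (SD, n = 3 each), a difference of 1.07 (SE 0.32, 2.09-fold, limma adjusted p = 0.198). Llgl1, the more broadly expressed copy, gave 4.89, 4.71 and 5.04 on control arrays and 5.08, 4.66 and 5.06 on knockout arrays. The groups overlapped fully, and the difference of 0.05 had an unadjusted 95% interval from -0.40 to 0.51 (limma adjusted p = 0.947). Its readings, at percentiles 41.2 to 45.2, were below the median of every array, and the sign of its difference turned when any 1 of control 2, knockout 1 or knockout 3 was left out.

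**Figure D2:**
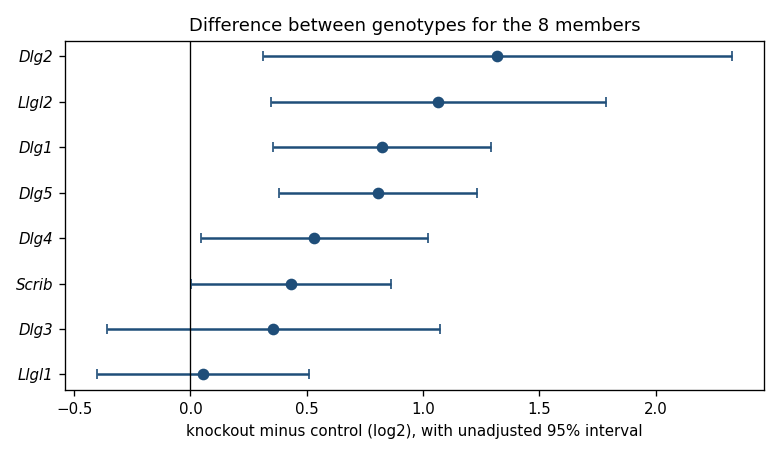
Difference between knockouts and controls (horizontal axis, log2) for each of the 8 genes, ordered by size, with the unadjusted 95% interval of the limma fit over 3 arrays per group. All 8 points lie at or above 0.05, and the intervals of Dlg3 and Llgl1 include 0.

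Values were also set out by Y-linked signal. In the pair of arrays without it, 1 control and 1 knockout, Llgl2 differed by 2.16, Dlg2 by 2.06 and Dlg3 by 1.39. On the 4 arrays with Y-linked signal, 2 of each genotype, the same genes differed by 0.52, 0.95 and -0.16. Dlg5 and Scrib had nearly equal differences in both, 0.83 and 0.80 for Dlg5 and 0.45 and 0.43 for Scrib. Dlg1 had 0.32 in the pair without Y-linked signal and 1.08 on the other arrays, and Dlg4 0.32 and 0.64. The difference of these differences was tested in limma and passed for none of the 8. Llgl2 had the smallest adjusted p of 0.193 (1.64, SE 0.38) and Dlg3 one of 0.237 (1.55, SE 0.42). Over all probe sets that test called 0, with 2643 at an unadjusted p under 0.05. The pair without Y-linked signal holds 1 animal of each genotype, so its values carry no error of their own. The test takes its spread from the other 4 arrays and, through limma, from all probe sets, and a difference between the genes is not shown.

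Mean levels of several tissue marker lists also differed between the groups. No gene of any marker list passed the limma test adjusted over all probe sets. All 6 measured follicular markers had higher means in the knockouts, and the list's mean level was 7.84 to 9.50 in the controls and 10.20 to 10.63 in the knockouts. Slc5a5, the basolateral iodide symporter, differed by 4.83, with control 3 at 2.97, and the list's mean difference of 1.55 was 0.89 without it. Tshr, the thyrotropin receptor, differed by 1.75 and Pax8, a transcription factor of the gland, by 1.52, each with all knockouts above all controls. Nkx2-1 differed by 0.73 and Tg, the hormone precursor, by 0.04, and both overlapped between the groups. Slc26a4 differed by 0.41 but read only 2.37 to 3.12, under the lower quartile of the arrays (3.49 to 3.60). None of these 6 passed the limma test adjusted over all probe sets. In the squamous and basal list 6 of 7 were higher, with control arrays at 14.40 to 14.61 and knockout arrays at 14.75, 14.60 and 15.55. Knockout 3, the highest array for Dlg2, Dlg3, Dlg5, Scrib and Llgl2, was thus also the highest for squamous markers. It lacked Y-linked signal and was the lowest array for the muscle (15.95), fibroblast (10.64) and endothelial (8.65) list means. The general epithelial, adipocyte and glial list means were lowest there too. The markers of muscle (0 of 7 higher) and of airway (0 of 5 higher) were lower in the knockouts, from 17.01 to 17.13 against 15.95 to 16.72 and from 15.96 to 16.88 against 15.06 to 15.25. General epithelial markers, Epcam, Krt8, Krt18, Cdh1 and Cldn3, were higher in 1 of 5 (11.38 to 12.09 against 11.29 to 11.65). Leukocyte markers (0 of 4 higher, 6.57 to 6.92 against 5.75 to 6.37), fibroblast markers (0 of 6, 11.71 to 12.85 against 10.64 to 12.04) and adipocyte markers (0 of 4, 12.64 to 13.74 against 12.39 to 12.85) also had lower means in the knockouts. Both measured genes of the parathyroid list, Pth and Casr, had lower means, as had both of the C cell list, Ret and Chga (9.63 to 12.14 against 5.84 to 10.84). Each of these genes overlapped between the groups, and Calca of the C cell list was not measured. Chga, a granule protein of neuroendocrine cells, differed by -6.19. It read 15.74, 17.63 and 13.15 in controls and 5.85, 15.16 and 6.95 in knockouts. Knockout 2 was the highest knockout for Chga and for Pth. The mean levels of the endothelial markers (1 of 4 higher) and of the glial list (1 of 3 higher) overlapped between the groups. Within the glial list Mbp differed by -1.33 and S100b by 1.02, each without overlap of the groups, while Sox10 overlapped. The part of these tissues in the differences of the polarity genes was not tested.

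When the parathyroid level (Pth and Casr averaged) entered the fit as a covariate, the adjusted genotype difference was positive for 7 of 8 polarity genes and 0 were called. No share of all probe sets with a positive difference in that fit is given beside this count. Dlg2 then differed by 1.91, Llgl2 by 1.20, Dlg1 by 0.84, Dlg5 by 0.75 and Dlg3 by 0.58. The same fit called 2 probe sets in all, with Dlg4 at 0.27 and Llgl1 at -0.22. The parathyroid level was 13.29 to 16.585 in controls and 6.00, 14.57 and 9.555 in knockouts. It thus ran largely with genotype, and a fit over 6 arrays cannot tell the parathyroid level and genotype apart.

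**Figure D3:**
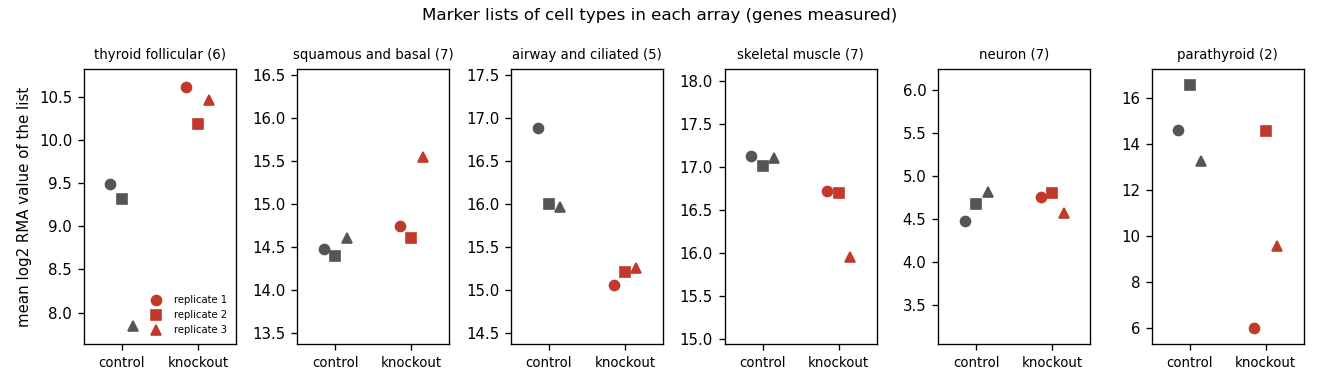
Mean log2 RMA value (vertical axis) of 6 marker lists in each control array (grey) and knockout array (red), with the number of genes measured in brackets. The first 5 panels span 3.2 log2 units and the parathyroid panel 12. Follicular markers lie higher in all knockouts, airway and muscle markers lower, and neuronal markers overlap.

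Other polarity genes were read from 8 lists with 70 measured genes. Of these, 46 had a higher mean in the knockouts and 24 a lower one, where 46.8% of all probe sets were higher. None passed the limma test adjusted over all probe sets, against 0.338% of all probe sets. An unadjusted limma p under 0.05 was reached by 12 with a higher and 3 with a lower mean, against 12.7% of all probe sets in either direction. The counts of single lists below are to be read beside the same shares. The median difference of all 8 polarity complex members, 0.67, was above that of each of these lists, whose medians ran from -0.23 to 0.54. No test compares the lists. Without both arrays that lacked Y-linked signal the median was 0.58 for the polarity complex, 0.39 for basolateral kinases and relatives of Scrib and Lgl, 0.23 for other scaffolds, 0.15 for adherens junctions and 0.093 for the Par3, Par6 and atypical protein kinase C genes, where all 6 arrays gave 0.67, 0.40, 0.54, 0.43 and 0.39.

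Of the related lists, those of the lateral membrane and its junctions stand closest to Scrib and Lgl in function. In the list of basolateral kinases and relatives of Scrib and Lgl, 7 of 10 were higher (median 0.40), with 3 higher and 0 lower at an unadjusted p under 0.05. Lrrc1, a relative of Scrib, had the smallest p there. Control arrays gave 9.71, 9.99 and 9.64 and knockout arrays 10.50, 10.94 and 11.07, a difference of 1.06 (limma adjusted p = 0.0911). All knockouts lay above all controls. Mark2, a kinase of the lateral domain, differed by 0.98 (adjusted p = 0.157). In the adherens junction list 6 of 7 were higher (median 0.43), with Ctnnd1, which stabilises cadherins, at 0.93 (adjusted p = 0.148) and Afdn, which ties nectins to actin, at 0.99 (adjusted p = 0.15). The median of this list was 0.28 without knockout 3.

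Other membrane-associated guanylate kinases were split, 7 of 11 higher and 4 lower (median 0.54). Magi3 gave 7.71, 8.00 and 7.64 on control arrays and 8.78, 8.83 and 9.06 on knockout arrays, a difference of 1.11 (limma adjusted p = 0.0609). It was the smallest adjusted p among the 70 genes, with all knockouts above all controls. Its relative Magi1 differed by 0.70 (adjusted p = 0.214). The median of this list was 0.33 without control 1 and 0.71 without control 2.

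The apical complexes stand opposite Scrib, Dlg and Lgl in the cell. Of the Par3, Par6 and atypical protein kinase C genes 7 of 8 were higher (median 0.39), with Pard6g at 0.93 and Pard3 at 0.75 (limma adjusted p = 0.32 and 0.327). Of the Crumbs complex genes 6 of 8 were higher (median 0.20) and none reached an unadjusted p of 0.05. The Crumbs median was 0.098 without knockout 1. Lin7c at 0.40 and Crb3 at 0.44 had the smallest p (adjusted p = 0.45 and 0.459).

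Genes whose products bind the Dlg and Scrib scaffolds showed little common direction. In the list of PDZ ligands 6 of 10 were higher (median 0.11). Nos1ap, an adaptor that binds Scrib, gave 9.79, 9.43 and 9.33 on control arrays and 8.40, 8.54 and 8.22 on knockout arrays, a difference of -1.13 (limma adjusted p = 0.0665), while Marchf3 differed by 0.82 (adjusted p = 0.347). All knockouts were below all controls for Nos1ap, opposite to Scrib itself. In the list of proteins at the guanylate kinase domain 5 of 7 were higher (median 0.11), with Gphn, a scaffold of inhibitory synapses that is no established Dlg ligand, at 0.67 and Dlgap2 at -0.51 (adjusted p = 0.271 and 0.407). Of the postsynaptic partners of Dlg4, 2 of 9 were higher (median -0.23), with Shank2 at -0.62 and Nlgn1 at -0.49 (adjusted p = 0.376 and 0.4). Many of the last group read low, such as Grin2b at 2.59 to 3.59, near or under the lower quartile of the arrays (3.49 to 3.60). When 1 array was left out, the median of the PDZ ligands ran from -0.043 (without control 3) to 0.23 (without control 2), and so changed sign. The medians of the guanylate kinase domain list and of the Dlg4 partners kept their sign. That of the guanylate kinase domain list ran from 0.055 (without knockout 3) to 0.20 (without knockout 1). That of the Dlg4 partners ran from -0.38 (without knockout 1) to -0.092 (without knockout 2).

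**Figure D4:**
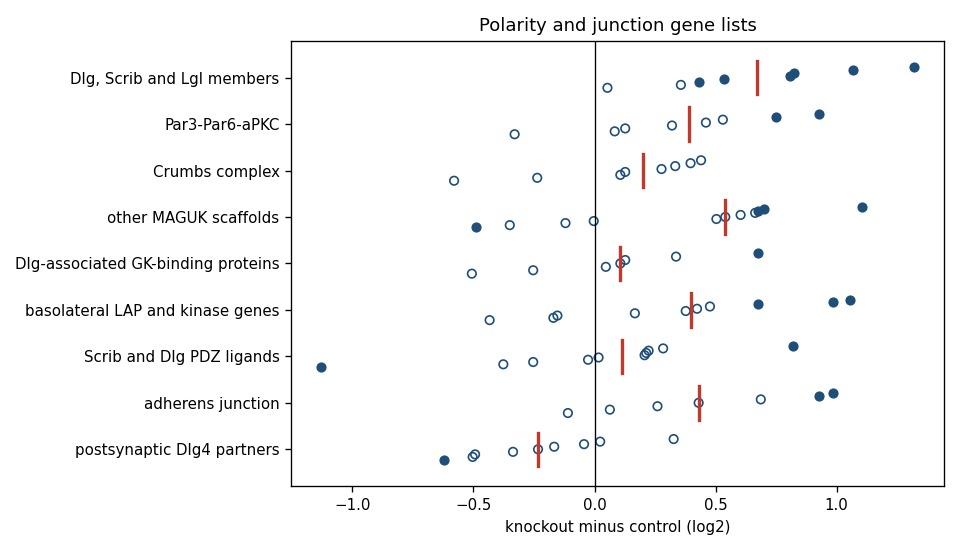
Difference between knockouts and controls (horizontal axis, log2) for each gene of the polarity complex and of 8 related lists (vertical axis). Filled points have an unadjusted limma p under 0.05, open points do not, and red bars are medians, which run from -0.23 for the Dlg4 partners to 0.67 for the polarity complex.

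Genes with array patterns like those of Dlg5 and Dlg1, the members with the smallest p, were taken by Pearson's r over the 6 arrays among 19504 genes. For Dlg5 these were Ces2e, a carboxylesterase, Adgrl2, a latrophilin adhesion receptor, and Arhgef33, each with r rounded to 1.00. Their own differences were 1.21, 1.44 and 5.11. For Dlg1 they were 2610524H06Rik, Kcne1, a potassium channel subunit, and Gpr137b-ps, a pseudogene, with r of 0.99, 0.99 and 0.98 and differences of 0.60, 0.83 and 0.78. The 6 arrays fall into 2 genotypes, so genes that separate them tend to correlate with Dlg5 or Dlg1. In all, 91 genes exceeded an r of 0.95 with Dlg5 and 43 with Dlg1.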

How the data were processed

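Thyroid RNA of 6 mice, 3 per genotype, was measured on 1 array each. The deposited files hold log2 values that the authors computed with RMA in Affymetrix Expression Console (named in the submitters' processing notes). The sources used here give no version, settings, annotation or genome build, and no detection calls or scan dates were used. RMA compresses differences near background.

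Names came from the platform's annotation with RefSeq's current symbols (19572 of 22206 probe sets). Every probe set was tested, unfiltered, in limma 3.58.1 under R 4.3.3 (lmFit, eBayes, two-sided). P-values were adjusted over all of them by Benjamini-Hochberg at 0.05. The fit was tested on simulated data, where it recovered 24% of changes of 1 log2 and 92% of changes of 2. Changes of 1 were thus mostly missed. Figures used matplotlib 3.10.9 in Python 3.11.15.

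The members and gene lists were chosen with earlier results of these data known. Named are all 8 members, Foxe1, the 2 genes of each related list with the smallest p, since none was called, and the 3 genes most like each of the 2 members with the smallest p. Grin2b and the marker genes named singly (Snap25, Stmn2, Syt1 and Rbfox3 among them) were picked after their values were seen. Same-numbered arrays did not deviate together (r of -0.0090, 0.076 and 0.017), so replicate numbers were taken as names only. Other settings covered normalization (quantile, median), the variance model, array weights, filters, the threshold, the replicate block, Y-linked signal and leaving out each array. Averaging a gene's probe sets changes nothing, as each member has 1. The parathyroid covariate, leaving out both arrays without Y-linked signal, and the interaction of genotype with that signal were added after seeing the data.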

Additional observations from a re-analysis of the deposited data

How the results depend on the processing

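None of the 8 genes was called under any of 17 other settings. The number with a positive difference stayed between 6 and 8 in 16 of them, lowest without both arrays that lacked Y-linked signal. The number at an unadjusted p under 0.05 was also lowest there, at 3, with no share over all probe sets given. Llgl1 was filtered out of the fit of probe sets above the median level, where every gene left had a positive difference. Of 127 recomputed differences 6 changed sign. These were Llgl1 in 3 of the fits that left out 1 array (range -0.032 to 0.19), with the parathyroid covariate (-0.22) and without both arrays lacking Y-linked signal (-0.0050), and Dlg3 in the last (-0.16). The count of called probe sets, 75, was 118 with a variance trend and robust fitting, 260 at an adjusted p of 0.10, 2 with the parathyroid covariate, 6 without both arrays lacking Y-linked signal, and 2 (without knockout 1) to 43 (without control 1) when 1 array was left out. With the replicate block it was 63, and 3 of 6 arrays were most like the array of their own number in the other group. Of 128 list medians 18 moved by more than the spread between replicates and 1 changed sign, that of the PDZ ligands without control 3 (-0.043). The cause of these changes was not tested. Over all probe sets the deposited values differed by a median of -0.02, which was -0.0092 after renewed quantile normalization and 0.02 after median centring.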
